A study of Mus musculus with 5 samples.

Results

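The MYC family and its partners were followed through the fusion of mouse embryonic stem cells with a hepatoma line and the later differentiation of the hybrid. The genes were Myc and Mycn, their partner Max, and the other MAX partners Mxd1, Mxd3, Mxd4, Mxi1, Mnt and Mga. They were chosen by name, and every gene probe whose transcript record belongs to one of them was used. This gave 16 probes for 9 of the 18327 genes that could be named on the array. RNA was measured on 5 Agilent arrays, 1 per condition. ES is the embryonic stem cell line E14, and Hepa1-6 is a mouse hepatoma line. EHe is the undifferentiated hybrid of the pair, selected with drugs after fusion in polyethylene glycol and expanded from individually picked colonies. EHeD7 and EHeD14 are EHe after 7 and 14 days of differentiation. Leukemia inhibitory factor was in the medium of ES and EHe. By the labels, the differentiating hybrids and Hepa1-6 had fetal calf serum in DMEM rich in glucose, so that medium and cell state changed together. The study's methods for differentiation describe embryoid bodies in another medium.

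MYC and MYCN are transcription factors of the basic helix-loop-helix zipper family. They bind DNA at E-boxes as a dimer with MAX and raise genes for ribosome biogenesis, metabolism and growth. MXD1, MXD3, MXD4, MXI1 and MNT also pair with MAX and recruit SIN3 and histone deacetylases, so that they repress where MYC would activate. MGA, which carries a T-box domain as well, brings MAX into a polycomb complex that silences germ cell genes in embryonic stem cells. MYC helps embryonic stem cells to renew themselves and is often raised in liver tumors.

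Levels are given as the log2 signal relative to the 75th percentile of the same array, so that 0 is a bright probe and each unit is a doubling. Levels compare arrays for 1 probe and do not rank genes. There was no replicate, so no test between conditions was possible and the number of arrays limits the precision. Between repeated spots of a probe on 1 array, 95 percent of differences were below 0.38, and this value is used as the limit of spot noise. Below a signal of 500 it was 0.55. Noise between arrays was not measured. A gene was counted as higher or lower when it differed by over 3-fold, on 1 probe per gene. For all 9 genes this probe was well above background on all 5 arrays. Hepa1-6 was on a slide of its own, and slide and cell line cannot be told apart. In bulk RNA, fewer cells with a transcript and less of it per cell cannot be told apart either.

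Myc was lowest in the undifferentiated hybrid and highest in the hepatoma. Its lead probe, printed 10 times on each array, read 0.33 in ES and -2.09 in EHe, then -0.49 in EHeD7 and 0.15 in EHeD14, with 4.26 in Hepa1-6. The SD between its spots was 0.08, 0.12, 0.09, 0.07 and 0.06 in that order. Before scaling, its spots had signals from 277 to 348 in EHe and from 835 to 1052 in EHeD7. Such spots repeat the same RNA on the same array and do not measure variation between samples. The order was Hepa1-6, ES, EHeD14, EHeD7 and EHe. ES and EHeD14 differed by 0.18, while the other neighbors differed by more than the limit of spot noise. That limit is for single spots, and each level here is the mean of 10, so it does not show that ES and EHeD14 were alike.

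Mycn showed another pattern. Its signal was strong on the 4 arrays of the stem cell lineage and weak in the hepatoma. Its lead probe read 4.26 in ES and 4.32 in EHe, then 4.78 in EHeD7 and 4.25 in EHeD14, with -3.94 in Hepa1-6, where the signal was 94.9. ES, EHe and EHeD14 did not differ beyond spot noise, and EHeD7 lay 0.46 above EHe. That rise was 0.28 with median centring and 0.3 on a second, dimmer probe, both within spot noise. The fusion parents thus differed in opposite directions, with Hepa1-6 above ES by 15.2-fold for Myc and below it by 295-fold for Mycn. With median centring the log2 difference for Myc was 4.71 in place of 3.93, and for Mycn it was -6.81 with normexp, -7.49 with quantile normalization, -7.42 with median centring and -6.17 with the mean of its probes, in place of -8.21. On the lead probes the hybrid was at the level of ES for Mycn and below both parents for Myc.

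**Figure D1:**
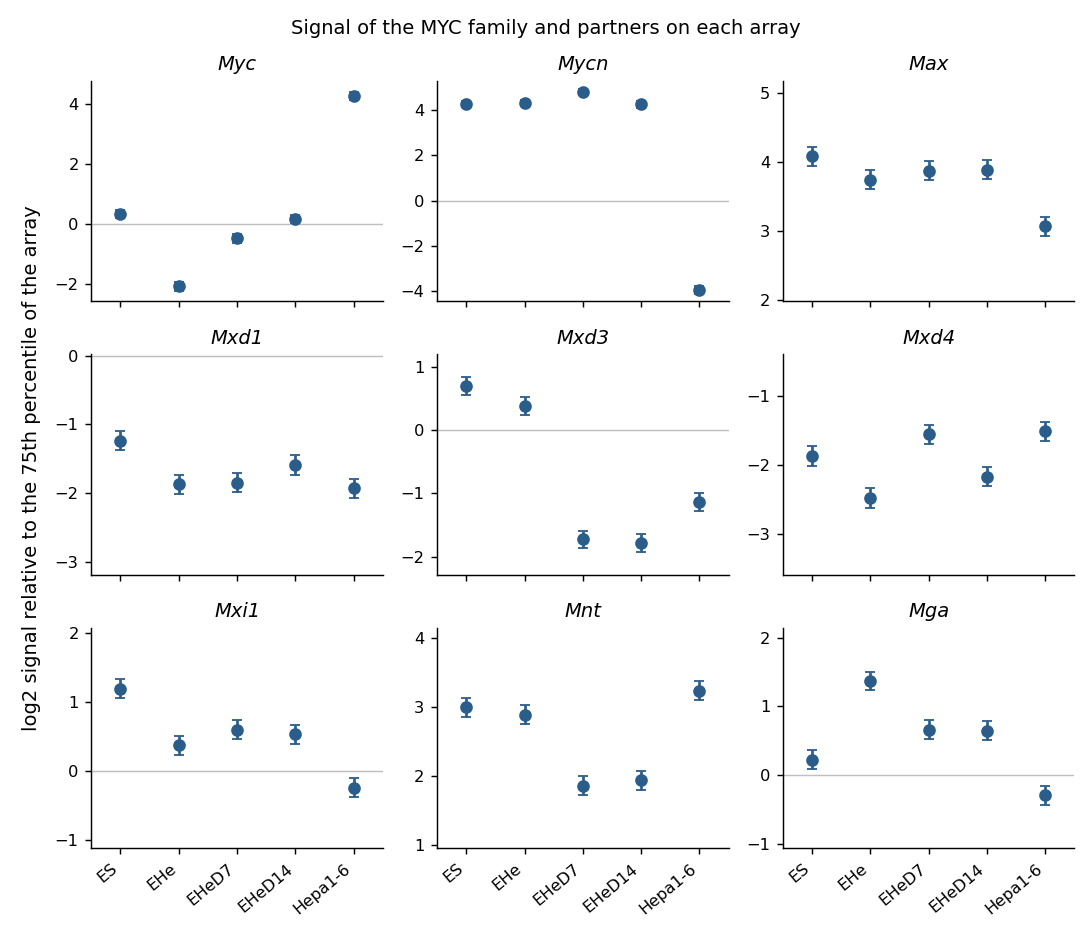
Log2 signal of the lead probe of each gene, relative to the 75th percentile of the array, in ES, EHe, EHeD7, EHeD14 and Hepa1-6, with 1 array per point. Bars are the scanner software's error of the signal, and each panel has its own vertical range. Myc runs from -2.09 in EHe to 4.26 in Hepa1-6, and Mycn falls to -3.94 in Hepa1-6.

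In EHe against ES, which sets the selected hybrid beside its stem cell parent, 1 of the 9 genes was past 3-fold. This was Myc, 5.34-fold lower in EHe. Of all 15446 named genes kept, 3.22% were lower by that rule and 2.36% higher. Mga was 2.20-fold higher in EHe, the largest rise among the 9, and Mxi1 was 1.77-fold lower. Mycn, Max, Mxd3 and Mnt did not differ beyond spot noise.

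On differentiation Myc was higher again and Mxd3 lower. The comparisons with EHe all share its 1 array. In EHeD7 against EHe, Myc was 3.03-fold higher, where 6.71% of all genes were higher, and Mxd3 was 4.33-fold lower, where 4.09% were lower. In EHeD14 against EHe, Myc was 4.72-fold higher beside 6.77% of all genes, and Mxd3 was 4.49-fold lower beside 4.38%. Myc at day 7 stood at the threshold. It was no longer past 3-fold with normexp background correction, quantile normalization, median centring or the mean of its probes, but stayed higher in each. None of the 9 genes was past 3-fold in EHeD14 against EHeD7, where 0.492% of all genes were higher and 0.641% lower. Myc was 1.56-fold higher at the later day on its lead probe, a difference beyond spot noise. The log2 difference of 0.64 was 0.39 with the mean of its probes. On the third and dimmest probe it was 0.14, within spot noise.

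The probes of Myc did not give 1 size of change. The second probe read -0.07 in ES and -2.49 in EHe, then -0.77 in EHeD7 and -0.38 in EHeD14, with 4.01 in Hepa1-6, close to the lead probe in its differences. The third was dimmer and flatter, with -2.82, -3.69, -3.18, -3.04 and 0.51 in the same order. It placed EHe lowest and Hepa1-6 highest as well, but the change was 1.82-fold in EHe against ES and 1.57-fold in EHeD14 against EHe. The dimmer probe of Mycn was 1.40-fold higher in EHe than in ES, within the spot noise of signals as low as its 482 in ES. It was not well above background in Hepa1-6, which makes it at least 17.5-fold lower there than in ES. Here "at least" means that the dim side was held at the lowest signal called well above background on its array, or at its own where that was higher.

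In Hepa1-6 against ES, 3 of the 9 genes were past 3-fold. Myc was higher, in a comparison where 13.1% of all genes were, and Mycn and Mxd3 were lower, where 20.9% were. Mxd3 was 3.56-fold lower, and with median centring it was not past 3-fold. In EHeD14 against Hepa1-6, Myc was 17.2-fold lower, beside 12.2% of all genes, and Mycn was 293-fold higher, beside 17.6%. The log2 difference for Myc was -4.11, and -4.94 with median centring, and that for Mycn was 8.20, and 6.25 with the mean of its probes. After 14 days Myc in the hybrid was thus 1.13-fold below ES and 17.2-fold below its hepatoma parent on the lead probe.

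**Figure D2:**
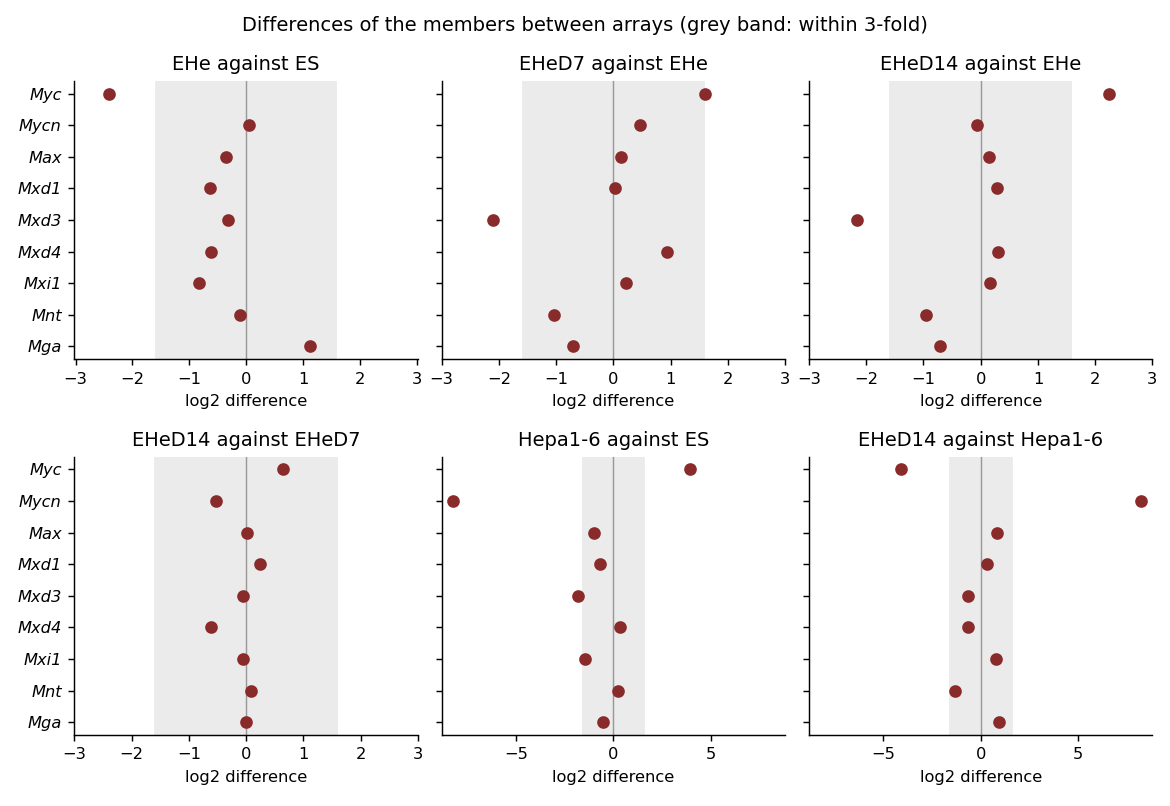
Log2 difference of each gene in 6 comparisons of arrays, named above the panels, on the lead probe. The grey band holds differences within 3-fold, and the horizontal range differs between panels. Myc lies outside the band in 5 comparisons, Mxd3 in 3 and Mycn in 2, and Myc in EHeD7 against EHe lies at its edge.

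Max, the shared partner, varied little. It read 4.09 in ES and 3.75 in EHe, then 3.88 in EHeD7 and 3.89 in EHeD14, with 3.07 in Hepa1-6. The 4 arrays of the stem cell lineage spanned 1.27-fold, beside a median of 1.73-fold over the 10915 named genes well above background on all arrays. Max was 1.76-fold higher in EHeD14 than in Hepa1-6, and this direction was lost with median centring.

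Of the MAX partners that repress, Mxd3 changed most. This member of the MXD group is known from proliferating cells. It read 0.69 in ES and 0.38 in EHe, then -1.73 in EHeD7 and -1.79 in EHeD14, with -1.14 in Hepa1-6. On this probe ES and EHe did not differ beyond spot noise, nor did EHeD7 and EHeD14. The second probe was 1.35-fold lower in EHe than in ES, beyond spot noise, and showed the step on differentiation too. It was 3.98-fold lower at day 7 and 4.30-fold lower at day 14 than in EHe.

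Mnt, which is made in most cells and is a broad counterpart of MYC, fell with Mxd3 but by less. Its level was 3.0 in ES and 2.89 in EHe, then 1.86 in EHeD7 and 1.94 in EHeD14, with 3.24 in Hepa1-6. It was 2.05-fold lower in EHeD7 than in EHe and 1.94-fold lower in EHeD14. Those differences exceed spot noise and are within 3-fold.

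Mxd1, Mxd4 and Mxi1 stayed within 3-fold across all 5 arrays, but Mxd4 did not with median centring, where it was 1.14 higher in Hepa1-6 and 0.50 lower in EHe than in ES. Mxd1, which accompanies terminal differentiation in many tissues, was between -1.93 and -1.24. It was not higher beyond spot noise on either day of differentiation than in EHe. Mxd4 was lowest in EHe at -2.48 and 1.91-fold higher in EHeD7. In EHeD14 it was 1.24-fold higher than in EHe, which is within spot noise. Mxi1 was highest in ES at 1.20 and 2.72-fold lower in Hepa1-6, a log2 difference of -1.44 that was -0.66 with median centring. Under that scaling Hepa1-6 was no longer its lowest array.

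Mga was highest in the undifferentiated hybrid. It read 0.23 in ES and 1.37 in EHe, then 0.66 in EHeD7 and 0.65 in EHeD14, with -0.29 in Hepa1-6. The second probe was 2.28-fold higher in EHe than in ES, beside 2.20-fold on the lead probe. The third was well above background in EHe and EHeD7 only and at least 2.06-fold higher in EHe than in ES. On differentiation Mga was 1.64-fold lower in EHeD14 than in EHe. Mga was thus highest and Myc lowest on the same array, EHe. Hepa1-6 was lowest for Mga by 0.53 against ES, and with median centring it was above ES by 0.26.

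Among 6 further genes (Mycl, Mlx, Mlxip, Mlxipl, Mycbp and Mycbp2), Mycl was past 3-fold higher on both days, beside 6.71% and 6.77% of all genes. Mycl, the remaining MYC gene of the family, read -1.72 in ES and -2.97 in EHe, then -0.83 in EHeD7 and -0.31 in EHeD14, with -1.72 in Hepa1-6. It was 4.43-fold higher in EHeD7 than in EHe and 6.31-fold higher in EHeD14. Like Myc it was lowest in EHe. The list median was 0.40 in EHeD14 against EHe, beside -0.05 for all genes.

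The genes of proteins that work with the family were taken as 4 lists. None of 14 coactivators, 9 corepressors of the SIN3 and histone deacetylase group, 11 subunits of the MGA complex and 12 regulators of MYC stability was past 3-fold in EHe against ES, nor on either day against EHe. Of all genes, 2.36% were past 3-fold higher and 3.22% lower in EHe against ES. The shares were 6.71% higher and 4.09% lower in EHeD7 against EHe, and 6.77% and 4.38% in EHeD14 against EHe. At these shares a single list of this size would hold few such genes in either direction. Whether the 4 lists as a set held fewer than their share was not tested. Their medians in EHe against ES were -0.14, 0.14, 0.12 and 0.21, beside -0.14 for all genes. They were -0.11, -0.38, -0.23 and -0.24 in EHeD7 against EHe, beside -0.07, and -0.16, 0.13, -0.10 and -0.37 in EHeD14 against EHe, beside -0.05. The corepressor median thus had opposite signs on the 2 days, and with median centring it was -0.02 at day 14.

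In Hepa1-6 against ES, 20.9% of all genes were lower and 13.1% higher, and the counts in these groups were 3 of 14 coactivators, 3 of 9 corepressors, 1 of 11 in the MGA complex and 3 of 12 regulators of stability lower, with 1 higher in each of the last 2. The counts depend on the scaling. Of the coactivators Smarcb1, a chromatin remodeling subunit, was 4.27-fold lower, Actl6a 3.44-fold and Wdr5 3.21-fold. With median centring none was lower and 2 were higher. Of the corepressors Sin3a, the scaffold of its complex, was 6.47-fold lower, Rbbp4 3.64-fold and Sap30 3.52-fold, and with median centring 1 was. In the MGA complex Yaf2 was 9.64-fold higher and L3mbtl2 4.86-fold lower, and with median centring none was lower. Among the regulators of stability the kinase genes Pim1 and Aurka were 6.53-fold and 3.25-fold lower, Usp28, a deubiquitinase, 4.49-fold lower and Trim32 4.22-fold higher, while with median centring 1 was lower and 2 were higher. The list medians were -0.87, -0.55, -0.83 and -0.90, beside -0.42 for all genes. With median centring they were -0.09, 0.23, -0.04 and -0.11 beside 0.37, so that the sign of the corepressor median turned, while each lay below the median of all genes under both scalings.

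Of 39 genes that MYC is known to raise, none passed 3-fold in EHe against ES, where Myc was lower and 3.22% of all genes were. The list median was -0.38 there, beside -0.14 for all genes, and this gap was not tested. By any size 29 of the 39 were lower and 10 higher, beside 59.1% and 40.9% of all genes. In EHeD7 against EHe 2 were higher and none lower, beside 6.71% and 4.09% of all genes, and 1 was lower with median centring. In EHeD14 against EHe 1 was higher and none lower, beside 6.77% and 4.38%. At these list sizes the counts do not stand apart from the shares of all genes. The median was -0.16 on both days, below the -0.07 and -0.05 of all genes, while Myc was higher. At day 7 with quantile normalization the list median equaled that of all genes at -0.05.

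In Hepa1-6 against ES, where Myc was higher, 9 of the 39 were lower and none higher. The share lower is near the 20.9% of all genes, while 13.1% of all genes were higher. The list median was -0.88 beside -0.42 for all genes. Of the 10915 genes well above background on all 5 arrays, 1713 were lower and 1407 higher, with a median of -0.25. All of the 39 but Ccnd2 are such genes. With median centring 3 were lower and the median was -0.10, beside 0.37 for all genes. In EHeD14 against Hepa1-6 6 were higher and 1 lower, beside 17.6% and 12.2% of all genes, and with median centring this turned to 1 higher and 2 lower. The median of 0.60 turned to -0.23 with median centring, beside 0.23 and -0.63 for all genes. Relative to the median of all genes, the list median lay on the side opposite to Myc in both comparisons with the hepatoma, which share its array. It lay on the same side as Mycn, which differed by -8.21 in Hepa1-6 against ES and by 8.20 in EHeD14 against Hepa1-6. The part of either gene in the levels of the list was not tested.

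Ccnd2, a D-type cyclin, was the member of that list past 3-fold on both days. It was 15.2-fold higher in EHeD7 than in EHe and 8.21-fold higher in EHeD14. Ldha, an enzyme of glycolysis, was 3.44-fold higher in EHeD7. Odc1, the first enzyme of polyamine synthesis and a classic target, read 7.48 in ES and 7.09 in EHe, then 7.48 in EHeD7 and 7.41 in EHeD14, with 6.60 in Hepa1-6. It was chosen for its history after its values were seen. Its highest and lowest levels lay within 3-fold.

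Of 14 genes that MYC is known to lower, 1 was higher past 3-fold in EHe against ES, and 5 were higher and 1 lower in EHeD14 against EHe, beside 2.36% higher in the former and 6.77% higher and 4.38% lower in the latter of all genes. The median was 0.47 in EHe against ES and 0.59 in EHeD14 against EHe, beside -0.14 and -0.05 for all genes. By any size 7 were higher and 6 lower in EHe against ES. In EHeD7 against EHe 4 were higher and none lower, beside 6.71% and 4.09% of all genes. The median there was 0.83, beside -0.07 for all genes. With normexp 3 were higher at day 7, and with median centring 1 was lower. Ndrg1, a stress and differentiation gene, was 4.12-fold higher in EHe than in ES. Clu, which encodes the chaperone clusterin, was 13.1-fold higher in EHeD14 than in EHe, and Cdkn1a, the cell cycle inhibitor p21, was 4.82-fold higher. Col1a2 was 5.08-fold higher, Cdkn1c 4.92-fold and Thbs1 at least 3.61-fold, while Gadd45a was 5.06-fold lower. At day 14 against EHe, 5 genes of this list were thus higher while Myc was higher too. Against ES, Hepa1-6 had 7 higher and 3 lower, beside 13.1% and 20.9% of all genes, with a median of 1.70. With normexp 7 were higher and 1 lower, and with median centring 9 and 2, with a median of 2.48. In EHeD14 against Hepa1-6 3 were higher and 6 lower, beside 17.6% and 12.2% of all genes, with a median of -1.02. With median centring 3 were higher and 8 lower, with a median of -1.84.

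**Figure D3:**
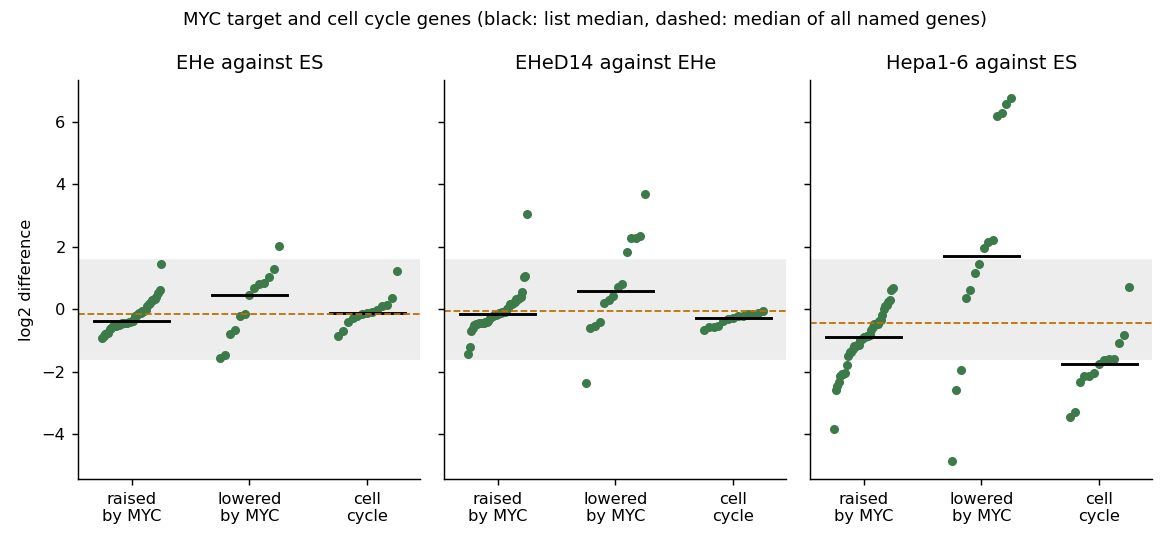
Log2 differences of 39 genes raised by MYC, 14 lowered by MYC (13 measured in EHe against ES) and 13 cell cycle genes in 3 comparisons of arrays, with 1 point per gene. Black lines are list medians, dashed lines the median of all named genes, and the grey band holds differences within 3-fold. In Hepa1-6 against ES the medians are -0.88, 1.70 and -1.76.

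Of 13 cell cycle genes, none was past 3-fold in EHe against ES, with a median of -0.10 that was 0.01 with median centring. None was past it on either day against EHe. By any size 12 of the 13 were lower in EHeD7 and 13 in EHeD14, with medians of -0.38 and -0.27 beside -0.07 and -0.05 for all genes, of which 54.3% and 53.2% were lower by any size. In Hepa1-6 against ES 10 were lower past 3-fold, beside 20.9% of all genes, with a median of -1.76. With quantile normalization 7 were, and with median centring 2 were, where the median was -0.98. Mcm5, a subunit of the replicative helicase, was 10.8-fold lower in Hepa1-6. Most of these differences were within spot noise at day 14, where the largest was 1.57-fold, for Ccne1.

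Among 13 regulators upstream of Myc or Mycn, Socs3 and E2f2 were past 3-fold lower on both days, beside 4.09% and 4.38% of all genes. Socs3, a feedback inhibitor that leukemia inhibitory factor induces through STAT3, was 6.69-fold lower in EHeD7 than in EHe and 8.96-fold lower in EHeD14. E2f2, an activating E2F factor, was 6.12-fold and 6.66-fold lower. Lef1, which acts in Wnt signaling, was 3.44-fold higher in EHeD7, as 1 of the 13 beside 6.71% of all genes. The list median was -0.07 in EHeD14 against EHe, beside -0.05 for all genes, and none of the 13 was past 3-fold in EHe against ES. Socs3 and E2f2 were lower on the days on which Myc was higher. Hepa1-6 had 2 of the 13 higher and 4 lower against ES, beside 13.1% and 20.9% of all genes.

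Markers of cell type differed between the same arrays. Of 8 pluripotency genes, 4 were lower past 3-fold at both days, beside 4.09% and 4.38% of all genes. Their summed level, which follows the probes with the strongest signal, in units of the 75th percentile, was 353 in ES and 399 in EHe, then 249 in EHeD7 and 144 in EHeD14, with 23.7 in Hepa1-6. The largest part of the sum on the 4 arrays of the stem cell lineage came from the probe of Dppa5a. In Hepa1-6 it came from Klf4, at a level of 4.54, and 3 of the 8 genes were well above background there. In EHeD14 against EHe, Esrrb was 116-fold lower, Klf4 41.8-fold, Zfp42 17.0-fold and Sox2 4.48-fold. Pou5f1, the gene of OCT4, differed by 1.10-fold, which is within spot noise. Pou5f1 and Mycn thus stood at like levels in EHe and EHeD14, each on its own probe, where Esrrb and Mxd3 were lower.

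Of 7 mesoderm markers, 5 of them well above background on some array, 2 were higher past 3-fold on each day, beside 6.71% and 6.77% of all genes. T, the gene of brachyury, was higher by at least 88.0-fold in EHeD7 and 93.7-fold in EHeD14 against EHe and Gsc by at least 5.13-fold and 11.7-fold. Their summed level was 3.64 and 4.16 in EHeD7 and EHeD14, with T the brightest, beside 0.370 in ES, 0.239 in EHe and 0.314 in Hepa1-6. For 7 trophoblast markers it was 17.1 in ES and 10.0 in EHe, then 6.13 in EHeD7 and 6.67 in EHeD14, with 4.23 in Hepa1-6. Its largest part was Tfap2c in ES and EHe and Krt7 on the other arrays. On each day 4 of the 7 were past 3-fold higher and Tfap2c lower, beside the same shares higher and 4.09% and 4.38% lower of all genes. At day 14 Krt7 was 58.2-fold higher, Hand1 at least 35.2-fold, Gata3 at least 20.6-fold and Eomes 15.7-fold, each against EHe, and Tfap2c was 34.9-fold lower. In EHe against ES, Krt7 was 8.41-fold lower and Hand1 at least 8.52-fold. The part of a changed cell mixture in the levels of Myc, Mycl and Mxd3 was not tested.

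Other germ layer genes differed at fusion as well as later. Of 7 endoderm markers, 4 were lower past 3-fold in EHe against ES, beside 3.22% of all genes, with Gata6 12.9-fold lower, Sox17 6.50-fold, Dab2 6.43-fold and Foxa2 at least 3.97-fold. In EHeD7 against EHe, Dab2 was 5.83-fold higher, Sox7 8.05-fold lower and Lama1 3.54-fold lower, beside 6.71% higher and 4.09% lower of all genes. By day 14 Dab2 was 12.2-fold higher than in EHe, Foxa2 at least 5.31-fold, Sox17 4.69-fold and Gata6 3.64-fold, beside 6.77% of all genes. The summed level was 6.46 in ES, 1.88 and 1.70 in EHe and EHeD7, 4.18 in EHeD14 and 10.6 in Hepa1-6, where Foxa2 was the brightest. Of 7 neural markers, Pax6 was 20.7-fold higher in EHe than in ES and Otx2 7.24-fold lower, beside 2.36% and 3.22% of all genes. Against EHe, EHeD14 had Pax6 at least 40.3-fold lower, Otx2 17.6-fold higher, Nes 3.88-fold higher and Tubb3 5.62-fold lower. Of all genes 6.77% were higher and 4.38% lower there. The summed level of the neural markers was 9.84 in ES and 10.2 in EHe, then 24.9 in EHeD7 and 25.8 in EHeD14, with 0.719 in Hepa1-6. The shifts in EHe against ES accompanied a lower Myc, and those on differentiation a higher Myc. Their part in the level of Myc was not tested.

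The liver markers were highest in the hepatoma. The summed level of 9 liver markers was 228 in Hepa1-6, with Afp the brightest, and 0.616 in ES and 0.362 in EHe, then 0.6 in EHeD7 and 0.330 in EHeD14, where 2 of the 9 were well above background. Ttr and Apoa1 were not well above background on any array, Hepa1-6 included. The 8 fibroblast markers summed to 176 in Hepa1-6, nearly all of it Dcn at a level of 7.46, and to 1.34 in ES and 0.968 in EHe, then 4.60 in EHeD7 and 5.27 in EHeD14. Against ES, Hepa1-6 was past 3-fold higher for Dcn and lower for Col1a1, Col1a2 and Thy1. Col1a1 was 19.5-fold and Thy1 4.49-fold higher in EHeD14 than in EHe, beside Col1a2. Pdgfra was at least 6.2-fold lower in EHe than in ES. Of 3 blood markers Ptprc and Lyz2 were not well above background anywhere, and Hba-a1 was 10.4-fold higher in EHeD7 and 9.95-fold in EHeD14 than in EHe. Their summed level was 1.6 and 1.54 on those days and between 0.151 and 0.169 on the other arrays.

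The genes with patterns most like Myc were searched among the 10915 named genes well above background on all 5 arrays, by the root mean square distance between profiles centered on their mean. The nearest were Fxyd5 at 0.33, Slc6a13 at 0.35, S100a3 at 0.38, Cdc42ep1 at 0.40 and Adgra2 at 0.46. All are highest in Hepa1-6 and lowest in EHe. For Mycn they were Nid2 at 0.32, Hebp1 and Fkbp10 at 0.41, Chchd5 at 0.45 and Dnmt3l at 0.49. In each of these 10 genes Hepa1-6 lay far from the other 4 arrays, so that it weighs most in the distance.

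Promoter sequences from RefSeq (GRCm38.p6), which run from 250 bases before to 50 after a gene start, were found for 8 of the 9 genes, all but Myc. The E-box CACGTG, to which MYC and MAX bind, was present in 3 of the 8, in 11 of 34 genes that MYC raises and in 8.09% of the 27025 genes in the table. By single promoters the share was 7.15%. The windows around it are shown for the 3 members, since these carry the letters that the family's own proteins bind, with the E-box in capitals. They lie at chr12:76962234-76962263 on the minus strand for Max, chr11:74830789-74830818 on the plus strand for Mnt and chr5:34187912-34187941 on the minus strand for Mxd4.
Max: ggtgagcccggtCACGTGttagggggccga
Mnt: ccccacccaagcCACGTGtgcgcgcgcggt
Mxd4: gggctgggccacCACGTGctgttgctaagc
In Max the E-box spans the gene start, from position -3, in Mnt it starts at -123 and in Mxd4 at -219, where 0 is the start in the table. None of these genes was past 3-fold in the comparisons with EHe. Of the raised genes, the 11 with an E-box and the 22 measured without one both had a median difference of -0.38 in EHe against ES. In EHeD14 against EHe the medians were -0.10 and -0.39, and in Hepa1-6 against ES -0.48 and -1.05. The difference between these groups was not tested, and the split was made after the values were seen.

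Mycn was the member with letters of the E2F type, TTTNNCGC. They occur in 5.93% of genes in the table, in 5 of 12 cell cycle genes and in 11 of 34 genes that MYC raises. The stretch from position -195 to -149 before Mycn, at chr12:12941985-12942031 on the minus strand, is shown because it holds 3 matches, of which the first 2 overlap on opposite strands. The capitals mark them.
Mycn: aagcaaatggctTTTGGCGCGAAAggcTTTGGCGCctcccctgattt
TTTGGCGC alone is in 0.514% of all promoters and TTTCGCGC in 0.323%. These, with TTTCCCGC and TTTGCCGC, are forms of TTTNNCGC and were searched on their own as well. The other motifs searched on both strands were CACGCG in 1 of the 8 promoters, CAGAC in 3, and TTCNNNGAA, TTTCCCGC and TTTGCCGC in 0, beside 10.5%, 53.2%, 9.55%, 1.24% and 0.507% of genes. A match describes letters and not a bound site.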

How the data were processed

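Expression was measured on 5 single-channel Agilent mouse oligo arrays, 1 per condition. The authors deposited scanner tables from Agilent Feature Extraction 10.7.3.1 (as named in the submitters' processing notes), with 45018 spots each. The values are the processed signal intensity of each spot, which the authors deposited after background correction in the scanner software, with no normalization between arrays. The deposited 0 or 1 calls for outliers and for spots well above background were also used. The series value table held the same intensities, with a largest difference of 0. The dye is Cy3 by the labels but Cy5 by the study's methods.

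Control spots and outlier spots (73 in EHe to 174 in Hepa1-6) did not enter, and 0 spots were saturated. From the log2 signal the 75th percentile of its array (1087 in ES to 1456 in Hepa1-6) was subtracted, and repeated spots were then averaged. Of 41174 probes, 26888 were named through RefSeq records (GRCm38.p6), and statements about all genes cover these. Each gene was represented by the probe well above background on most arrays, then with the highest mean level, and 15446 of 18327 genes were kept as well above background on at least 1 array. Where a probe was not well above background on 1 side, that side stood at the higher of its own level and the array's lowest level so called, and the fold is "at least". No fold was given where both sides were dim. The scanner software put the error of the members' signals at 9.98% to 14.1%. Hdac1, Skp2, Nop56, Nanog, Serpina1a, Cd68 and Hbb-b1 were not matched to a probe and not analysed here.

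The members and gene lists were chosen with earlier results of these data known. All 9 members were named, with the 5 genes nearest in pattern to Myc and to Mycn. Of the other lists, genes past 3-fold at both days against EHe or in EHe against ES were named, up to 6 per list by size, with some further genes picked after their values were seen (those named for the coactivators, corepressors, MGA complex and MYC stability, Odc1, Ldha, Cdkn1c, Gadd45a, Mcm5, Ccne1, Lef1, Sox7, Lama1, Pou5f1, Ncl and the brightest or absent markers). All 9 motifs searched are given. The alternatives were quantile normalization, normexp on the median spot signal (offset 50), the series value table, centring on array medians, no bound on dim values, averaging all probes of a gene, a 2-fold threshold, and keeping either every gene or those well above background on all 5 arrays. Scaling alternatives for the list medians were added after the data were seen. The code was checked on simulated copies of the EHe array with planted changes and added noise. This checked the code only and does not measure noise between real arrays. Calculations ran in R 4.3.3 with limma 3.58.1 and in Python 3.11.15 with pandas 2.3.3, numpy 2.4.6 and matplotlib 3.10.9.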

Additional observations from a re-analysis of the deposited data

How the results depend on the processing

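No paired analysis was possible because there was 1 array for every condition. In EHeD7 against EHe the count of members past 3-fold was 2 and became 1 with normexp background correction, quantile normalization, median centring and the mean of a gene's probes, since Myc, at 1.6 on the log2 scale, came to 1.32, 1.54, 1.42 and 1.27. With a 2-fold threshold the count went from 1 to 2 in EHe against ES and from 3 to 5 in Hepa1-6 against ES. The other counts stayed within 1.5 times, although median centring took Mxd3 out in Hepa1-6 against ES and brought Mnt in for EHeD14 against Hepa1-6. Of 192 single differences that background correction, scaling or averaging of probes could move, 105 moved by more than the spot SD and 87 by less, and none past 3-fold changed sign. There were 16 changes of sign, 4 of them in differences beyond spot noise, all with median centring and Hepa1-6 (Mxd1 and Mga against ES, Max and Mxi1 in EHeD14). The array with the highest and the one with the lowest level stayed the same for 5 of 9 members with median centring.

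Scaling weighs most on Hepa1-6. The median of all genes in Hepa1-6 against ES was -0.42, and -0.22 with quantile normalization and 0.37 with median centring. Median centring also moved it from 0.23 to -0.63 in EHeD14 against Hepa1-6 (quantile normalization to 0.10), from -0.14 to -0.03 in EHe against ES, from -0.07 to -0.26 in EHeD7 against EHe and from -0.05 to -0.21 in EHeD14 against EHe. The share of higher calls among all calls went from 38.5% to 48.6% and 64.3%. In EHeD14 against Hepa1-6 it went from 59.1% to 32.6% with median centring, in EHe against ES from 42.3% to 53.1%, and in EHeD14 against EHeD7 from 43.4% to 30.4% with normexp. The cause was not tested. Low signal limits the third probes of Myc and Mga, and the lead probes of Mxd1 on all 5 arrays, Mxd4 on all but Hepa1-6, Mxd3 in EHeD7 and EHeD14, Myc in EHe and Mycn in Hepa1-6, since repeated spots under a signal of 500 differed by 0.55 at the 95th percentile.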

Other observations

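The probes of a gene did not always agree, as in Ncl, which encodes nucleolin and is among the genes that MYC raises. It has 4 probes well above background on all arrays. The lead probe was 1.13-fold higher in EHeD14 than in EHe, and others were 1.17-fold and 1.42-fold lower. Probe A_52_P620748 was 11.6-fold lower, with levels of 0.16 in ES and 0.04 in EHe, then -2.76 in EHeD7 and -3.50 in EHeD14, with -2.29 in Hepa1-6. This probe was singled out after its values were seen, and the transcript it reads was not examined.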
